A study of Mus musculus with 15 samples.

Results

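The zinc-dependent histone deacetylases Hdac1 to Hdac10 were examined in the cecum of mice with and without antibiotic-induced microbiome depletion (AIMD). They were taken by gene symbol, and all 10 were found among 45804 usable rows of the expression table. The RNA came from wild-type C57BL/6 mice with an age of 20 weeks on the labels. AIMD mice (n = 7) were gavaged 2 times a day for 30 days with the antibiotics ampicillin, vancomycin, neomycin and metronidazole and the antifungal amphotericin B, and vehicle-treated mice (n = 8) were gavaged with water on the same schedule. No mouse carried a transgene or a deletion, and the study's methods describe male mice. Values are FPKM, the reads on a gene adjusted for its length and the size of the library. Whole emptied ceca were used, so that fewer cells of a type and less RNA per cell cannot be told apart.

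Histone deacetylases remove acetyl groups from lysines in histones and other proteins, and they oppose the acetyltransferases. Class I enzymes work mostly inside nuclear corepressor complexes. Class IIa enzymes bind MEF2 transcription factors and leave the nucleus when kinases phosphorylate them and 14-3-3 proteins bind them, while class IIb enzymes act on tubulin or on polyamines. Butyrate, which gut bacteria make from fiber, inhibits several of these enzymes, and HDAC3 with the corepressor NCoR is also recruited to DNA by the clock proteins REV-ERB.

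The sequences upstream of 2 genes that fell in AIMD mice are shown as examples of different base composition. RefSeq promoters of the GRCm38.p6 assembly were used for 7 of the 10 genes, giving 11 promoters. Those of Hdac1, Hdac3 and Hdac10 were not searched, and no statement is made on them. The 250 bases before the start of each transcript were searched on both strands for GGGCGG (a GC box), for the box named CCAAT and for the E-box CACGTG, which do not overlap in the printed sequences. Capitals mark the matches to the GC box and the second motif on either strand, and each sequence reads 5′ to 3′ on the minus strand. The first lies before Hdac6, at chrX:7947890-7948139, and the other two lie before different starts of Hdac9, at chr12:34528890-34529139 and chr12:34917096-34917345.
Hdac6: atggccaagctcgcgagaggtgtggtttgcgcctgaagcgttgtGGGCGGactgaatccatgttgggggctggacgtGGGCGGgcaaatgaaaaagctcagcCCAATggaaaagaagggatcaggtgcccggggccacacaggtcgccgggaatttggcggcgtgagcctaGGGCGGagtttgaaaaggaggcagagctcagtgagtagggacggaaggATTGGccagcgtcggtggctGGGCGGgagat
Hdac9, first start: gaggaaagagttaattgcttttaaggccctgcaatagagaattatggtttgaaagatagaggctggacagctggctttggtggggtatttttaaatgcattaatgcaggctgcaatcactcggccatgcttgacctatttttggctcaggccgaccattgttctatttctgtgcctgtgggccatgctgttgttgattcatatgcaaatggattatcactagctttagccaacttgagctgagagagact
Hdac9, second start: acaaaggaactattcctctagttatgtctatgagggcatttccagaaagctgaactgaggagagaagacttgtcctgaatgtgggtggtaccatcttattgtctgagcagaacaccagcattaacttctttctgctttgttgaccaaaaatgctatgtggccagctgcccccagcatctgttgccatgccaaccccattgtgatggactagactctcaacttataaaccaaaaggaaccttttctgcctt

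The Hdac6 sequence held 61.2% G and C, with 4 matches to the GC box and 2 to the second motif. The Hdac9 sequences held 43.6% and 44.4% G and C, with 0 matches to any of the 3 motifs. The median over 32851 promoters of the same length was 52.4%, and 32.7% of them held GGGCGG, while 33.8% held the second motif and 6.02% held the E-box. None of the 11 promoters held the E-box in this window, and Hdac1, Hdac3 and Hdac10 were not among the genes searched. The promoter of Hdac2 (68.8% G and C) and that of Hdac4 (65.2%) were also above this median, as were that of Hdac5 (60.8%) and the 4 of Hdac7 (56.4% to 74%), of which 1 held the GC box, and that of Hdac8 (48.4%) was below it. A match is a description of letters and not a binding site.

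Of the 10 deacetylases, 5 were significantly lower in AIMD mice, namely Hdac1, Hdac3, Hdac6, Hdac7 and Hdac9. The tests used limma on log2(FPKM + 0.5), and a gene counted as changed at a Benjamini–Hochberg adjusted p under 0.05. A minimum FPKM of 0.5, to be reached by 7 mice or more, left 11971 genes, 9 of the 10 deacetylases among them, and Hdac5 was too low to be tested. Over all tested genes 36% were called, 16.6% as lower and 19.4% as higher, beside 5 of 9 lower deacetylases and 0 of 9 higher ones. None of the 9 was higher at an unadjusted p under 0.05 either, and an exact rank-sum test also called 0 higher, as did limma voom on read numbers worked back from the FPKM, which called 37% of all genes (19.6% higher and 17.5% lower). The median log2 fold change (AIMD against vehicle) was -0.38 over the 9 deacetylases and 0.0066 over all tested genes. Hdac4, Hdac7 and Hdac9 passed the filter through the vehicle-treated mice alone, since 7, 8 and 8 of these but only 5, 4 and 5 AIMD mice reached 0.5, so that these counts describe the tested genes and not the family.

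**Figure D1:**
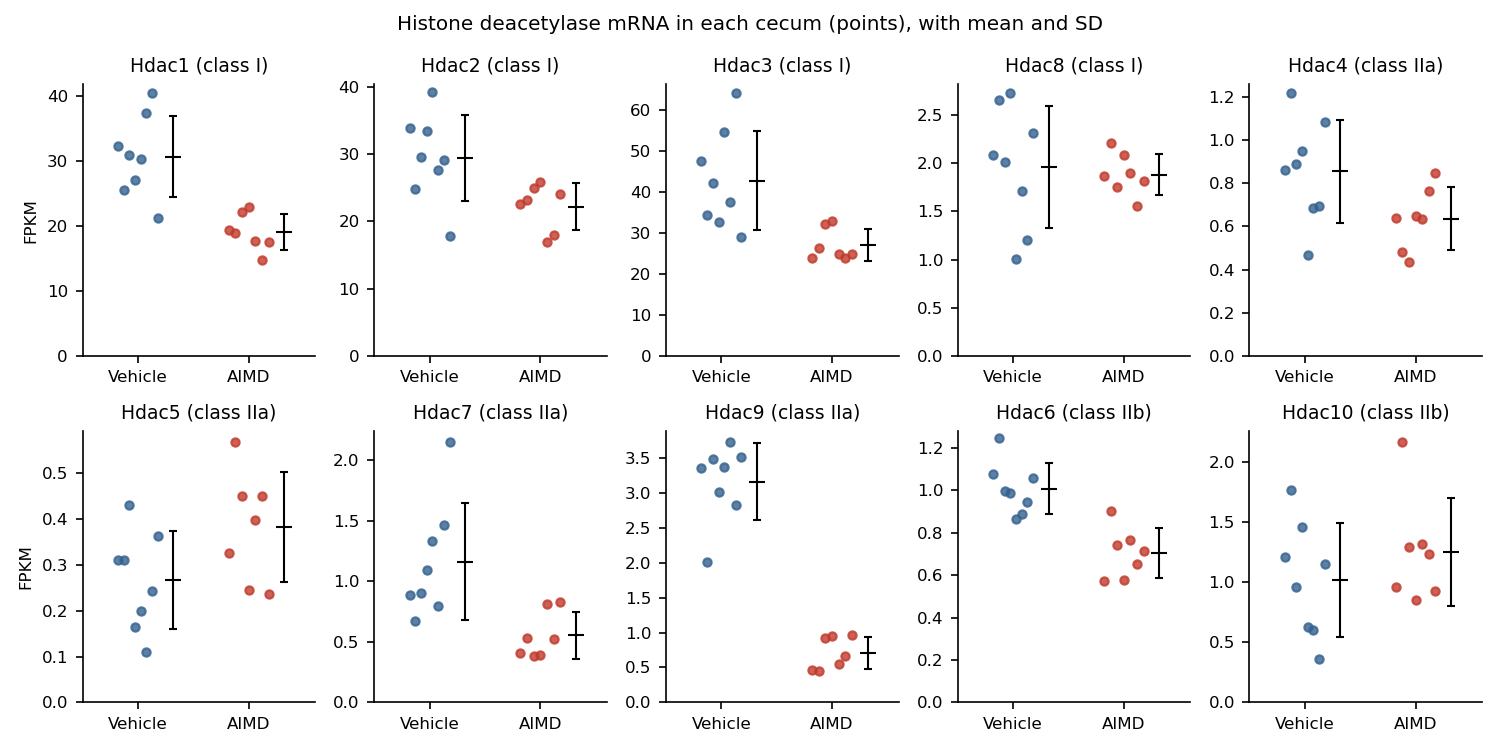
FPKM of the 10 histone deacetylases, 1 panel per gene with its own linear axis from 0, 1 point per mouse (8 vehicle-treated in blue, 7 AIMD in red), and the mean with its SD beside each group. Hdac9 alone shows groups that do not overlap (0.452 to 0.962 against 2.01 to 3.72), and the axes of Hdac1, Hdac2 and Hdac3 reach far higher than the others.

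The class I enzymes Hdac1, Hdac2 and Hdac3 made up most of the family's RNA. In vehicle-treated mice the mean FPKM was 42.8 ± 12.02 (SD, n = 8) for Hdac3, 30.7 ± 6.26 for Hdac1 and 29.4 ± 6.43 for Hdac2. Hdac3 exceeded Hdac1 in 8 of 8 of these mice, while Hdac1 exceeded Hdac2 in only 5 of 8, so that the order of the latter pair was within their spread. Class I as a whole summed to 105 ± 20.7 FPKM in vehicle-treated mice and 70.2 ± 9.46 in AIMD mice (n = 7). As a share of all 10 genes this was 93.0% ± 2.16 and 94.2% ± 1.13 (SD).

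Hdac1, a catalytic subunit of the Sin3, NuRD, CoREST and MiDAC complexes, lies on the minus strand of chromosome 4 (chr4:129516104-129542713, GRCm38). Its FPKM ran from 14.8 over a median of 19.0 to 22.9 in AIMD mice, and from 21.2 over 30.7 to 40.6 in vehicle-treated mice. The ranges overlapped only slightly, with 5 of 7 AIMD mice below the lowest vehicle-treated mouse. Hdac1 fell by 0.66 on the log2 scale (limma adjusted p = 0.00162, standard error 0.14), to 0.622 times the vehicle mean. Of the 50-base windows of its transcripts, 35.3% also occur in other genes, and 31.7% in the pseudogene Gm10093. The table gave Gm10093 an FPKM of only 0.231 to 1.31 over all mice, and how the authors' counting treated shared reads was not tested.

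Hdac2, the close paralog of Hdac1 in the same complexes, lies on chromosome 10 (chr10:36974544-37001889, plus strand) and shares 0% of its windows with other genes. Its FPKM had a lowest, median and highest value of 16.9, 23.2 and 25.9 in AIMD mice and of 17.9, 29.3 and 39.2 in vehicle-treated mice. Most of the AIMD range lay inside the vehicle range, although 6 vehicle-treated mice were above the highest AIMD mouse. The log2 fold change of -0.38 (standard error 0.15, 95% interval -0.70 to -0.06) did not pass the threshold, with a limma adjusted p of 0.0572. Without vehicle replicate 8, whose library was the shallowest, it was -0.48 with a limma adjusted p of 0.00733. Of 34 alternatives, 10 brought Hdac2 past the threshold. The limma adjusted p was under it also without AIMD replicate 4 (0.0490) or without vehicle replicate 2 (0.0498).

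Hdac3, the catalytic subunit of the NCoR complex, lies on the minus strand of chromosome 18 (chr18:37935844-37955016). Its FPKM ran from 23.8 over a median of 25.0 to 33.0 in AIMD mice and from 29.1 over 39.8 to 64.2 in vehicle-treated mice. Again 5 of 7 AIMD mice lay below every vehicle-treated mouse, and the vehicle values were far more spread. Hdac3 fell by 0.62 on the log2 scale (limma adjusted p = 0.00654, standard error 0.16), to 0.632 times the vehicle mean. It remained the highest of the family in AIMD mice, above Hdac2 in 7 of 7.

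Hdac8, a class I enzyme that works outside the large corepressor complexes and deacetylates cohesin, was the low member of its class. It is X-linked (chrX:102284639-102505359, minus strand), and its FPKM ran from 1.56 over 1.87 to 2.20 in AIMD mice and from 1.00 over 2.04 to 2.73 in vehicle-treated mice. The AIMD mice lay wholly within the vehicle range. Its log2 fold change was -0.0074 (standard error 0.16, 95% interval -0.34 to 0.33, limma adjusted p = 0.975), and its sign turned with small changes of the settings.

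Hdac9 showed the largest change of the 9 tested deacetylases and was the only one whose groups did not overlap. Hdac9 is a class IIa enzyme that represses MEF2 targets and is best known from muscle, neurons and T cells. The gene spans 870 kb of the minus strand of chromosome 12 (chr12:34047580-34917095). Its FPKM had a lowest, median and highest value of 0.452, 0.671 and 0.962 in AIMD mice and of 2.01, 3.36 and 3.72 in vehicle-treated mice. Every vehicle-treated mouse therefore had more than the highest AIMD mouse, a separation shown by 8.57% of all tested genes, downward by 3.3% and upward by 5.27%. The vehicle mean was 4.45 times the AIMD mean, and limma gave a log2 fold change of -1.60 (adjusted p = 6.36e-07, standard error 0.14). Only 24 to 77 reads per AIMD mouse and 68 to 153 per vehicle-treated mouse stood behind these values. On the recovered reads, limma voom gave -2.18 (standard error 0.21), without the pseudocount of 0.5 FPKM that shrinks low genes. These read numbers rest on a gene length that was searched for and is not that of GENCODE M21.

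Hdac9 was the fourth most abundant deacetylase in vehicle-treated mice and the sixth in AIMD mice, where Hdac8 and Hdac10 had higher means. In vehicle-treated mice it exceeded Hdac8 in 7 of 8. In AIMD mice it exceeded the next gene, Hdac6, in only 4 of 7, so that the order of these genes was within their spread. Hdac9 supplied 58.1% ± 7.44 (SD) of the summed class IIa FPKM in the 8 vehicle-treated mice and 31.0% ± 8.55 in the 7 AIMD mice. The class IIa sum was 5.44 ± 0.802 and 2.28 ± 0.331 FPKM, with no overlap between the highest AIMD mouse (2.88) and the lowest vehicle-treated mouse (4.21).

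Hdac7, a class IIa enzyme known from blood vessels and thymocytes, was also lower in AIMD mice. The gene lies on chromosome 15 (chr15:97792664-97844502, minus strand). Its FPKM ran from 0.381 over 0.523 to 0.832 in AIMD mice and from 0.669 over 0.996 to 2.15 in vehicle-treated mice. The highest value was that of vehicle replicate 8, and 5 AIMD mice lay under all of the vehicle-treated ones. Hdac7 fell by 0.63 on the log2 scale (limma adjusted p = 0.00842, standard error 0.17), to 0.476 times the vehicle mean, and by 0.53 (limma adjusted p = 0.00897) without vehicle replicate 8. The call was lost with 5 covariates, depth and 4 marker lists, where the log2 fold change ran from -0.48 to -0.14. Its reads were few, 18 to 60 per AIMD mouse and 36 to 67 per vehicle-treated mouse.

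Hdac4, a class IIa enzyme known as a repressor of MEF2 in muscle and cartilage (chr1:91928779-92195699, minus strand), did not pass the threshold. Its FPKM ran from 0.435 over 0.640 to 0.847 in AIMD mice and from 0.466 over 0.872 to 1.22 in vehicle-treated mice. The groups overlapped over most of their range. limma gave a log2 fold change of -0.24 (adjusted p = 0.160, standard error 0.13), and limma voom gave -0.45 (adjusted p = 0.0728).

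Hdac5, the remaining class IIa enzyme (chr11:102194432-102230166, minus strand), was the lowest of the family in both groups. Only 1 mouse reached the filter's minimum of 0.5. Its FPKM ran from 0.237 over 0.399 to 0.570 in AIMD mice and from 0.110 over 0.277 to 0.430 in vehicle-treated mice, from 9 to 75 reads a mouse. It was thus placed opposite to Hdac9, with 3 AIMD mice above every vehicle-treated mouse, but the difference was not significant (two-sided exact permutation test, p = 0.0707).

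Of the class IIb enzymes, Hdac6 was lower in AIMD mice. Hdac6 is a mainly cytoplasmic enzyme that deacetylates tubulin, and the gene is X-linked (chrX:7930120-7947889, minus strand). Its FPKM had a lowest, median and highest value of 0.571, 0.716 and 0.903 in AIMD mice and of 0.866, 0.993 and 1.25 in vehicle-treated mice. The groups overlapped through a single AIMD mouse, and 6 of 7 were below every vehicle-treated mouse. Hdac6 fell by 0.33 on the log2 scale (limma adjusted p = 0.0183, standard error 0.10), to 0.699 times the vehicle mean.

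Hdac10, which removes acetyl groups from polyamines (chr15:89123307-89128700, minus strand), was the only tested member with a log2 fold change above 0. Its FPKM ran from 0.853 over 1.24 to 2.17 in AIMD mice and from 0.362 over 1.05 to 1.77 in vehicle-treated mice, with wide overlap. The log2 fold change of 0.24 (standard error 0.20, 95% interval -0.19 to 0.66, limma adjusted p = 0.377) was within the spread between mice. The class IIb sum was 1.96 ± 0.552 FPKM (SD) in the 7 AIMD mice and 2.03 ± 0.580 in the 8 vehicle-treated mice.

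**Figure D2:**
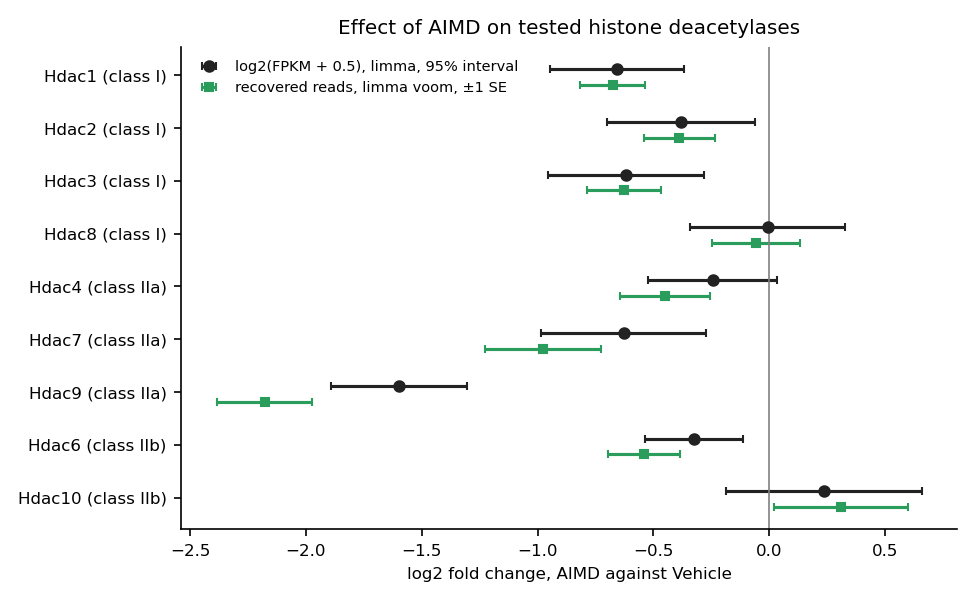
Log2 fold change (AIMD against vehicle) of each of the 9 tested deacetylases from limma on log2(FPKM + 0.5), as black circles with 95% intervals, and from limma voom on the recovered reads, as green squares with 1 standard error. Hdac9 stands apart at -1.60, and the limma intervals of Hdac4, Hdac8 and Hdac10 include 0.

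The mice also differed in the phase of the circadian clock, whose protein REV-ERB recruits HDAC3. The study took time of sacrifice as a factor, but the labels do not give it for each mouse. The mice were split by the sign of a clock-gene axis, the first principal component of the clock genes centered within the groups. This placed AIMD replicates 1 to 3 and vehicle replicates 1 to 4 at high Arntl (BMAL1, 12.5 to 20.7 FPKM). The other 4 AIMD and 4 vehicle-treated mice were at low Arntl (4.00 to 9.90). Dbp, a target of BMAL1, was low where Arntl was high. Hdac9 was lower in AIMD mice in both sets, at 0.207 times the vehicle mean at high Arntl and 0.234 times at low Arntl, without overlap in either set. The ratio was below 1 in both sets also for Hdac1 (0.696 and 0.564), Hdac3 (0.703 and 0.575), Hdac7 (0.493 and 0.445) and Hdac6 (0.686 and 0.723). Of these, Hdac6 also did not overlap in either set, and Hdac1, Hdac3 and Hdac7 did not overlap at high Arntl only. The share of all tested genes without overlap in sets of so few mice was not counted.

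For Hdac4 the ratio was 0.531 at high Arntl and 0.986 at low Arntl. At high Arntl its mean FPKM was 0.519 ± 0.107 (SD) for 3 AIMD mice and 0.977 ± 0.164 for 4 vehicle-treated mice. Here 3 of 3 AIMD mice were below every vehicle-treated mouse, as they were for Hdac1, Hdac3, Hdac6, Hdac7 and Hdac9. The share of all tested genes with such a separation in so few mice was not counted, so that it is not a result about these genes. At low Arntl the means were 0.723 ± 0.1005 and 0.733 ± 0.257 (SD, n = 4 each). The interaction of treatment with the clock-gene axis, the first principal component of the clock genes, had an unadjusted p of 0.0631 in limma and an adjusted p of 1.00, so that the difference between the sets did not pass the test.

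Along that axis, centered within the groups, 0 of the 9 tested deacetylases had a slope with a limma adjusted p under 0.05, and 2 had an unadjusted p under 0.05. Over all tested genes 12.5% rose and 9.08% fell with Arntl. The nearest were Hdac7, which had a slope of -0.062 per unit of the axis (limma adjusted p = 0.0618), and Hdac10, which had a slope of 0.073 (limma adjusted p = 0.0654). With the centered axis as a covariate, the limma adjusted p of Hdac2 was 0.0424.

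**Figure D3:**
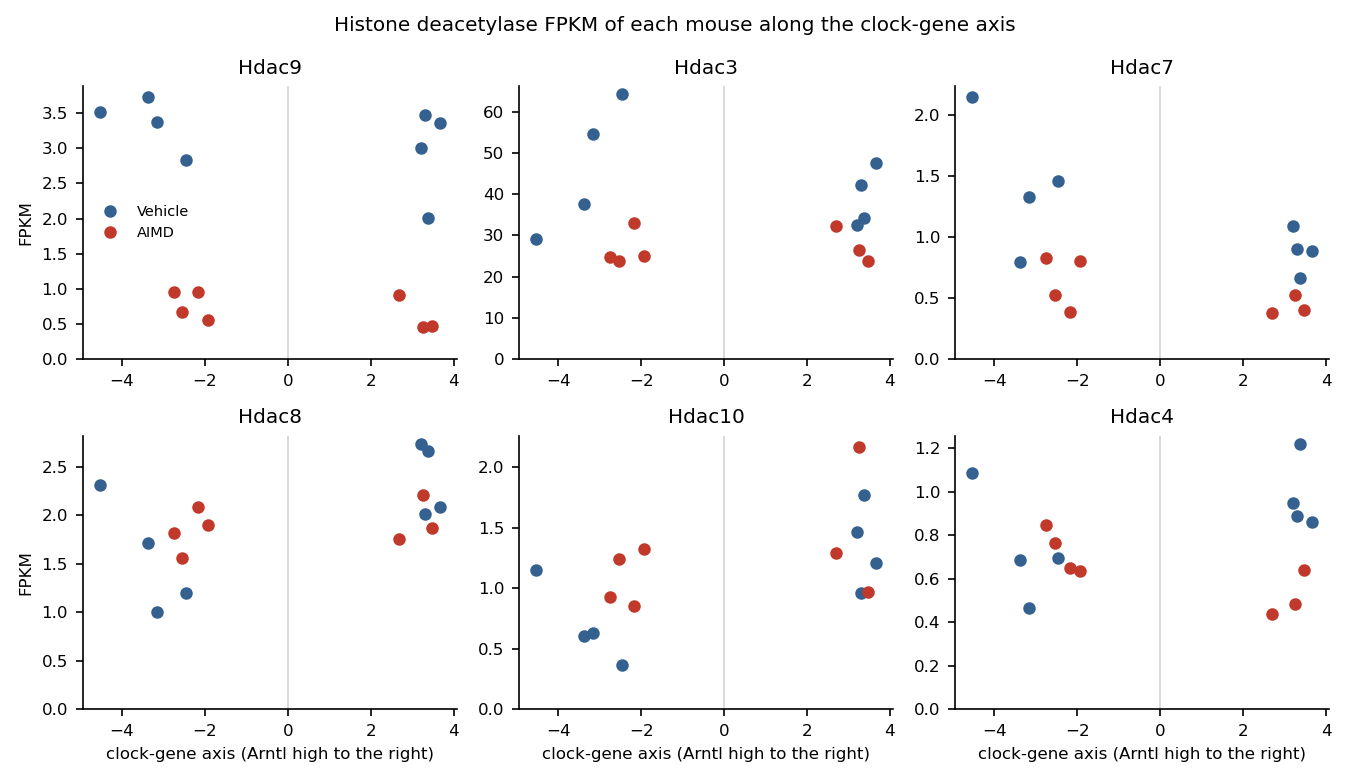
FPKM of 6 deacetylases in each mouse (vehicle-treated in blue, AIMD in red) against its position on the clock-gene axis centered within the groups, with high Arntl to the right. Hdac9 of AIMD mice lies below that of vehicle-treated mice on both sides of the axis, and the groups of Hdac3, Hdac4 and Hdac7 are apart only on the right.

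The libraries differed in depth and in the RNA of other cell types of the cecal wall. The recovered reads ran from 8679679 to 18108586 in AIMD mice and from 4372423 to 14405949 in vehicle-treated mice (two-sided exact permutation test, p = 0.0345). The 10 epithelial markers, such as Epcam and Vil1 (3 higher, 1 lower, with a median log2 fold change of 0.43), summed to 4734 to 7420 FPKM in AIMD mice and to 4048 to 6130 FPKM in the others, so that the epithelium of the labelled tissue was well represented. Of the markers of enteric neurons and glia 5 of 6 tested genes were lower in AIMD mice, and the 9 genes summed to 2.92 to 5.67 and 5.29 to 84.7 FPKM. The 10 smooth muscle markers (2 lower) summed to 230 to 844 and 543 to 3185, and the 10 lymphocyte markers (2 of 9 tested lower) to 13.4 to 61.1 and 33.6 to 78.4. The 10 endothelial markers (1 of 7 tested lower) summed to 7.84 to 11.4 and 8.79 to 15.4, and the 8 fibroblast markers (1 higher, 2 lower) to 43.0 to 104 and 45.6 to 164. Of the 8 markers of macrophages and dendritic cells 4 were higher in AIMD mice, with sums of 72.4 to 241 and 49.6 to 89.4. No marker was at 0 in all mice. Vehicle replicate 8 stood apart, with the fewest reads and the highest smooth muscle, neuronal, endothelial and fibroblast sums. Its lymphocyte sum was also the highest, though only by little (78.4, against 78.0 in vehicle replicate 3).

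Hdac9 stayed lower in AIMD mice when the mean level of any of these marker lists, or depth, was a covariate, with a limma adjusted p of at most 0.000526. Hdac1 kept its call in all 34 alternatives, with an adjusted p of at most 0.0414, and Hdac3 lost it only with the macrophage and dendritic cell markers (-0.49, limma adjusted p = 0.0817). Hdac7 had a log2 fold change of -0.41 with smooth muscle, -0.36 with endothelium, -0.48 with epithelium, -0.32 with depth and -0.14 with neurons and glia as the covariate, and it was not significant with any of these (limma adjusted p = 0.0807, 0.102, 0.0647, 0.155 and 0.702). Hdac6 was not significant with smooth muscle (-0.27, limma adjusted p = 0.0796), with neurons and glia (-0.34, limma adjusted p = 0.145) or with macrophages and dendritic cells (-0.33, limma adjusted p = 0.0663). Its standard error was 0.11, 0.16 and 0.13 in these fits, against 0.10 and a log2 fold change of -0.33 without a covariate. The neuron and glia level ran from -0.25 to 0.25 in AIMD mice and from 0.20 to 2.84 in vehicle-treated mice, so that this covariate is hard to tell apart from treatment. Hdac2 ran from -0.74 with neurons and glia (limma adjusted p = 0.0300) to -0.14 with macrophages and dendritic cells (limma adjusted p = 0.578). The part of these cell types in the values of Hdac2, Hdac3, Hdac6 and Hdac7 was not tested beyond these values.

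**Figure D4:**
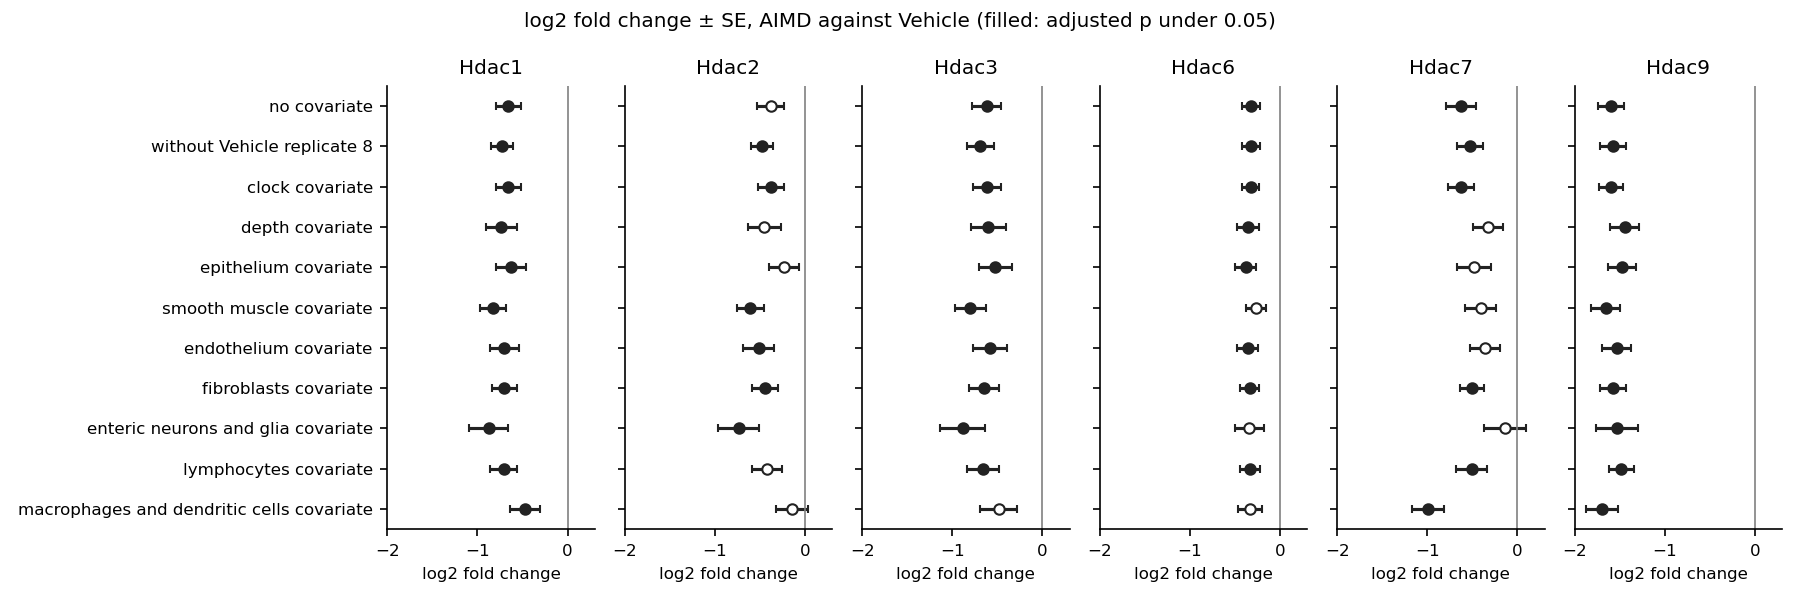
Log2 fold change (AIMD against vehicle) with its standard error for 6 deacetylases, without a covariate, without vehicle replicate 8, and with the clock axis, depth or a marker list as a covariate, with filled circles where the limma adjusted p is under 0.05. Hdac9 and Hdac1 are filled throughout, while Hdac7 runs from -0.99 to -0.14.

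Of 87 genes in 12 lists of proteins that work with or beside the deacetylases, 80 were tested, of which 16 were higher and 11 lower in AIMD mice, with a median log2 fold change of 0.03. These counts are near the 19.4% higher and 16.6% lower over all tested genes. Hdac11, the only class IV enzyme, stood at 3.21 ± 0.744 FPKM (SD) in the 7 AIMD mice and at 2.27 ± 0.932 in the 8 vehicle-treated mice. The log2 fold change of 0.46 (standard error 0.19) did not pass the threshold (limma adjusted p = 0.0669), but did with the clock-gene axis as a covariate (limma adjusted p = 0.0227). Unlike the 9 tested members, Hdac11 had a slope along the centered axis that passed the threshold (0.076 per unit, limma adjusted p = 0.0356). Over all tested genes 12.5% rose with Arntl in this way.

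The sirtuins are deacylases that depend on NAD instead of zinc, and 5 of 7 were higher and 1 lower in AIMD mice. The nuclear Sirt6, counted among the 5, had an FPKM of only 0.259 ± 0.182 in vehicle-treated and 0.697 ± 0.150 in AIMD mice, so that it passed the filter through 6 AIMD mice and 1 vehicle-treated mouse, was tested in 26 of the 34 alternatives, and gives no support to this count. The mitochondrial Sirt3 rose from 2.24 ± 0.883 to 4.69 ± 1.40 FPKM (log2 fold change 0.93, limma adjusted p = 0.00293), and Sirt1, Sirt2 and Sirt7 rose by 0.39 to 0.46 on the log2 scale. Sirt1 and Sirt7 lost their calls under 10 and 22 of the 34 alternatives, single mice left out among them. Sirt5, a mitochondrial desuccinylase, fell from 17.3 ± 6.41 to 8.71 ± 2.35 FPKM (log2 fold change -0.90, limma adjusted p = 0.00611), and Sirt4 had a log2 fold change of -0.33 (limma adjusted p = 0.0503).

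Among the partners of Hdac3 in the NCoR complex, the related subunits Tbl1x and Tbl1xr1 moved in opposite directions. Tbl1x rose from 6.33 ± 1.30 FPKM (SD, n = 8) to 9.65 ± 1.47 (SD, n = 7), with a log2 fold change of 0.58 (limma adjusted p = 0.00339). Tbl1xr1 fell from 17.7 ± 3.74 to 11.3 ± 2.69 FPKM, with a log2 fold change of -0.63 (limma adjusted p = 0.00532). The scaffold Ncor1 (-0.17) and Gps2 (0.34) did not pass.

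Among the complexes of Hdac1 and Hdac2, most genes listed for Sin3 and NuRD did not pass the test. Of 15 Sin3 genes 2 were higher and 1 lower, and of 12 NuRD genes 2 were higher and 1 lower, with the histone-binding subunits Rbbp7 (higher, 0.36) and Rbbp4 (lower, -0.44) in both lists. Rbbp4 lost its call under 9 of the 34 alternatives, among them without AIMD replicate 5, 6 or 7 or vehicle replicate 1. Mbd2, the NuRD subunit that binds methylated DNA, rose from 28.1 ± 3.84 to 49.7 ± 6.87 FPKM, with a log2 fold change of 0.81 (limma adjusted p = 8.71e-05). Its lowest AIMD mouse (39.4) was above its highest vehicle-treated mouse (33.9). Sap130 of the Sin3 complex also rose (0.63, limma adjusted p = 0.00157). In CoREST, with 5 genes tested, the demethylase Kdm1a (-0.31) and the histone reader Phf21a (-0.46) fell and Hmg20b rose (0.85). In MiDAC, with 2 genes tested, the scaffold Elmsan1 fell by 0.83 on the log2 scale (limma adjusted p = 0.0149).

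Of the MEF2 factors, which class IIa enzymes bind, Mef2a, Mef2c and Mef2d had log2 fold changes of 0.45, -0.40 and -0.11 and did not pass the threshold (limma adjusted p = 0.0703, 0.165 and 0.627), and Mef2b was listed at 0. Of 10 tested kinases that can phosphorylate class IIa enzymes, Mark2 rose by 0.94 and Sik3 fell by 0.86 on the log2 scale, and Camk2g fell by 0.40 with a limma adjusted p of 0.0477, a call lost under 20 of the 34 alternatives, whose log2 fold changes ran from -0.70 to 0.019. Of 7 14-3-3 genes, Ywhab (0.45) and Ywhae (0.54) rose and Ywhag (-0.37) and Ywhaq (-0.42) fell. Of 13 acetyltransferases, Kat5 (0.68) and Kat7 (0.45) rose and the other 11 did not pass. Of the 3 BET proteins, which read acetylated histones, Brd2 rose by 0.39 and Brd3 fell by 0.62 on the log2 scale (limma adjusted p = 0.00794 and 0.000341).

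**Figure D5:**
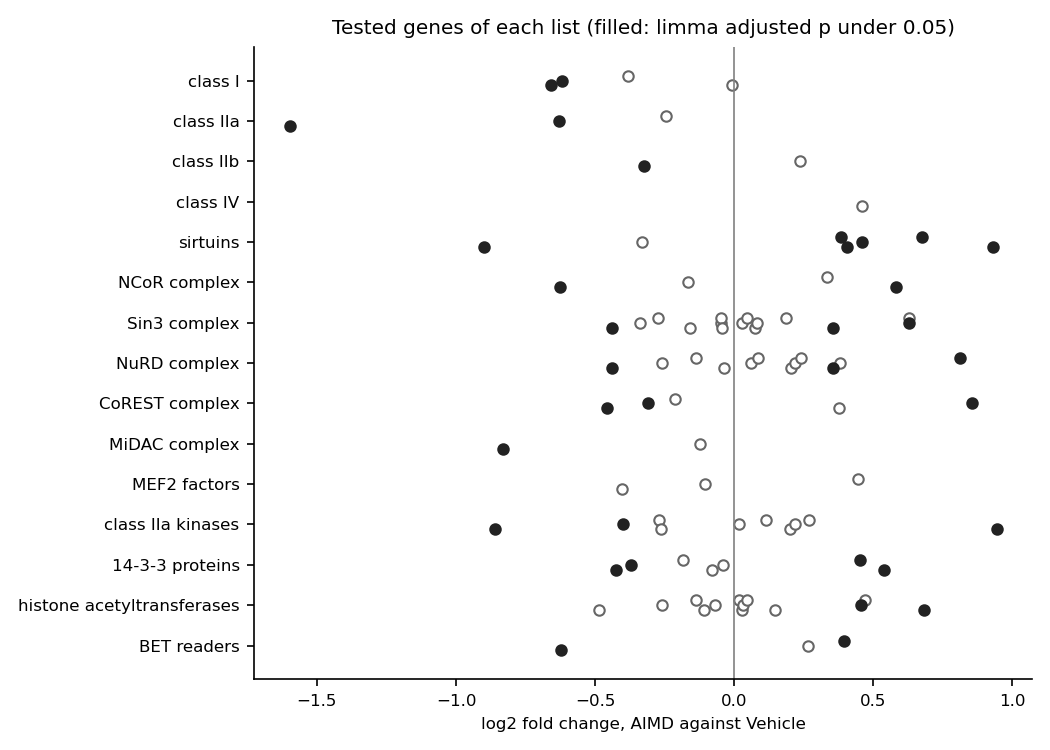
Log2 fold changes (AIMD against vehicle) of the tested deacetylases by class and of the tested genes of each related list, 1 point per gene, filled where the limma adjusted p is under 0.05. The sirtuins lie mostly above 0 (5 of 7 higher), and the deacetylases of classes I, IIa and IIb mostly below 0 (5 of 9 lower). Over all tested genes 19.4% were higher and 16.6% lower. Sirt6 passed the filter mainly through AIMD mice, and Hdac4, Hdac7 and Hdac9 through vehicle-treated mice, so that the counts describe only the tested genes.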

How the data were processed

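Cecal RNA of 7 AIMD and 8 vehicle-treated mice was sequenced from stranded poly-A libraries, and each mouse was assigned from the sample labels. The authors aligned with STAR to GRCm38, used featureCounts with GENCODE genes for counting, and deposited FPKM per gene and mouse. Tests by the authors used DESeq2 with treatment and time of sacrifice. How the FPKM were made from the counts is not given in the sources used here. Of 45808 rows, 4 with repeated symbols were left out, and 27 symbols had been turned into dates.

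Read numbers were worked out for 100% of the 24279 genes above 0, as whole multiples of 1 read's value (tolerance 0.02, wider where the printed digits required it). At GENCODE M21 exon lengths this held for 68.1% of them. For the others, lengths were searched for the shortest that gave whole numbers, so that a whole number there does not by itself show that the reads are right. The lengths behind Hdac3, Hdac4, Hdac7 and Hdac9 were not those of GENCODE M21. Low read numbers limit the precision of low genes, and an FPKM averages over transcripts of a gene.

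Each mouse's FPKM were scaled by a median-of-ratios factor (13594 genes), and log2(FPKM + 0.5) was tested with limma 3.58.1 (trend, two-sided, R 4.3.3) and Benjamini–Hochberg adjustment over 11971 genes. The pseudocount shrinks the differences of low genes. Single values were tested by exact permutation (6435 splits). The fit was tested on simulated data. Other steps ran in Python 3.11.15 (pandas 2.3.3, numpy 2.4.6, matplotlib 3.10.9, scipy 1.17.1). The study housed several mice per cage, and the labels do not say which mice shared one. The p-values rest on the spread between mice taken as independent, and would be too small if cage mates were alike.

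The members and lists were chosen with earlier results of these data known. All 10 deacetylases are named, as are genes of the related lists that pass the threshold, or any gene of lists of up to 7, and the 3 genes most like each member past the threshold. Other pseudocounts, filters, scalings and tests, a replicate block, clock, marker and depth covariates and each mouse left out were tried. The clock slope, the interaction and the covariates of neurons and glia, lymphocytes, fibroblasts, and macrophages and dendritic cells were added after seeing the data. A gene counted in the related lists is not reported here.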

Additional observations from a re-analysis of the deposited data

Results flagged for a closer look

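Of 20 groups of mice checked (10 deacetylases in 2 groups), 1 held a mouse far from the others, and chance gives about 1 in 20. Hdac10 of AIMD replicate 2 had an FPKM of 2.17, while the next highest AIMD mouse had 1.32, a gap of 0.644 of the group's range, above Dixon's 95% critical value for 7 mice. Without this mouse the log2 fold change of Hdac10 was 0.13 (limma adjusted p = 0.640), against 0.24 with it.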

How the results depend on the processing

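The number of deacetylases lower in AIMD mice was 5 and ranged from 5 to 6 with each mouse left out, and 0 were higher. It was 3 with an FPKM of at least 1 as the filter, which left Hdac6 and Hdac7 untested, and 3 with the macrophage and dendritic cell covariate (the cause was not tested). Of the related genes, 16 higher and 11 lower became 10 and 6 with depth as a covariate and 9 and 3 with the neuron and glia covariate, and 7 were lower with the macrophage and dendritic cell covariate. Over all genes, 4315 calls became 2498 with the neuron and glia covariate, whose level hardly overlapped between the groups. With each mouse left out, 13 to 18 related genes were higher and 9 to 12 lower. The sign of Hdac8 turned, with log2 fold changes of 0.0031 with a pseudocount of 0.1, 0.027 with the replicate block, 0.035 with the clock axis not centered, 0.051 with smooth muscle, 0.016 with lymphocytes, 0.051 with macrophages and dendritic cells, and -0.10 to 0.055 with each mouse left out. The replicate numbers do not pair the mice, since the correlations of same-numbered mice ran from -0.35 to 0.43 and only 1 of 7 pairs correlated best with its own number. With the replicate block, 6 deacetylases were lower, with 17 related genes higher and 12 lower. Genes with fewer than about 100 reads a mouse, such as Hdac5, Hdac6, Hdac7 and Hdac10, are limited by depth, as is Hdac9 in AIMD mice (24 to 77 reads).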

Other observations

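The genes most like each changed deacetylase were taken by Pearson's r over the 15 mice after centering within the groups, as a description, since all points share library and depth. Hdac9 was most like Zbtb44 (0.831), Mterf1b (0.831) and Tbce (0.824), of which Zbtb44 and Mterf1b were also lower in AIMD mice (log2 fold change -0.77 for each, limma adjusted p = 0.000522 and 0.00615). Hdac1 was most like the adenosine receptor gene Adora2b (0.920), the cytochrome c gene Cycs (0.874) and Metap1 (0.872), and all 3 were lower in AIMD mice (log2 fold changes -1.50, -0.88 and -0.64). Hdac3 was most like Fopnl (0.942), Wrb (0.937) and Mrpl20 (0.927), of which only Wrb was called, as lower (-0.60, limma adjusted p = 0.00884). Hdac7 was most like Calcrl (0.914), Ccl17 (0.901) and Impact (0.893), none of which was called. Hdac6 was most like Rac3 (0.934), Ntmt1 (0.914) and Ddx18 (0.888), of which only Ddx18 was called, as higher (0.63, limma adjusted p = 0.00225). Over all tested genes 16.6% were lower and 19.4% higher. Chosen after its values were seen, Hdac10 was most like the mitotic genes Ckap2l (0.955) and Aurka (0.938) and the histone methyltransferase gene Suv39h1 (0.926).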
